A study of Rattus norvegicus with 6 samples.

Results

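The family of miR-15b, miR-16, miR-195 and miR-497 was followed in rat tendon-derived stem cells (rTDSCs) with and without cyclic stretch. Its members were chosen by name, as the probes that the array design calls rno-miR-15b, rno-miR-16, rno-miR-195 and rno-miR-497, without the star (passenger) arms and without the related miR-322 cluster. These were 4 of the 677 miRNAs on the array, and all 4 were detected on all 6 arrays and tested, among 148 miRNAs tested in all. rTDSCs came from the patellar tendons of male Sprague Dawley rats aged 8 weeks, were mixed at passage 0 and used at passage 3, and were grown on silicone rubber plates coated with collagen type I. The loading group was stretched along one axis by 10% at 0.5 Hz for 8 h per day over 7 days, and the non-loading (control) group was kept static on the same plates for the same 7 days. Each group had 3 samples, each hybridised in 1 colour (Cy3) to 1 array of a single slide. The labels do not say that the samples were separate cultures or animals, so p-values measure the spread between these samples, which may be technical. The cells were a pool of colonies, studied outside the tendon, and in such bulk RNA fewer cells of a type and less RNA per cell cannot be told apart.

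A miRNA guides the silencing machinery to messenger RNAs that pair with its seed, the bases 2 to 8 counted from the 5′ end. Members of the miR-15/16 family share 1 seed and are known for holding back cell division, through messages such as those of cyclins D and E, and for lowering the survival factor Bcl2. miR-15b and miR-16 are processed from 1 transcript inside Smc4, a gene for a condensin subunit that packs chromosomes for division. miR-195 and miR-497 come from another cluster, and miR-195 is known from heart muscle cells that leave the cell cycle after birth.

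The mature sequences are given to show the seed that the members share and how far they differ outside it. They are those of RefSeq (build GRCr8) for the 5p arms, the arm that the unstarred array names stand for, with the seed in capitals.
rno-miR-15b, chr2:155555197-155555218, plus strand: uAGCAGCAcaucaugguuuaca
rno-miR-16, chr2:155555343-155555364, plus strand: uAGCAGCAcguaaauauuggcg
rno-miR-195, chr10:55450509-55450529, plus strand: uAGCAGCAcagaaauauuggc
rno-miR-497, chr10:55450172-55450193, plus strand: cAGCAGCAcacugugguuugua
rno-miR-322, the relative outside the rule, chrX:137726198-137726219, minus strand: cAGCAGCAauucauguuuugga
The 4 members and miR-322 were the 5 of 724 mature rat miRNAs in the table with this seed. Position by position from the 5′ end, miR-16 and miR-195 were identical at 19 of 21 bases. They differed by G10A and U11G, with the base of miR-16 first, so that 12 of the 14 bases outside the seed were the same. Outside the seed the other pairs of members shared less, from 4 of 15 bases for miR-16 and miR-497 to 9 of 15 for miR-15b and miR-497. miR-15b and miR-497 were identical at 16 of 22 bases, although they lie in different clusters. Within a cluster the likeness was lower, with 14 of 22 bases for miR-15b and miR-16 and 12 of 21 for miR-195 and miR-497. In GRCr8, 124 bases separate the mature 5p arms of miR-15b and miR-16, both inside the Smc4 gene, and 315 bases separate those of miR-497 and miR-195, which no other gene of the table spans.

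Each member had 2 probes with 10 spots each per array. The authors deposited background-subtracted spot intensities, which are not scaled between arrays. Here each array was scaled by a percentile of its own, the 75th among 173 probes that every array detected, which came to 262.6 to 362.2 intensity units. Signals are given as a percentage of that percentile or as log2 of the ratio. The standard deviation (SD) of the negative-control spots was 1.80 to 2.28 intensity units, and 140 to 186 miRNAs were detected per array. Both probes of miR-15b and of miR-16 were well above background on all 60 of their spots over the 6 arrays. For miR-195 and miR-497 this held for the brighter probe only (60 of 60 spots), with 38.6 to 49.9 and 37.2 to 45.8 intensity units, respectively. Their dimmer probes were well above background on 13 and 19 of 60 spots. Signals of different probes depend on how each probe binds, so the levels of the members were not ranked against each other.

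The comparison asks whether stretch went with other levels of these miRNAs. No member had an unadjusted or adjusted p under 0.05 in the limma test. The mean was higher under loading for miR-15b and lower for miR-16, miR-195 and miR-497, by 0.08 to 0.11 on the log2 scale. Of the 4 members, 0 passed an adjusted p of 0.05, as did 0 of the 148 miRNAs tested (0%, smallest adjusted p in limma 0.0551). An unadjusted p under 0.05 was found in limma for 0 members, against 14 of the 148 miRNAs (9.46%). The groups did not overlap for 1 member, miR-16, against 23 of the 148 miRNAs (15.5%). The absolute change of all 4 members was under the median absolute change of all miRNAs tested, 0.11 on the log2 scale. The median change was -0.09 over the 4 members and 0.06 over all 148 miRNAs.

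**Figure D1:**
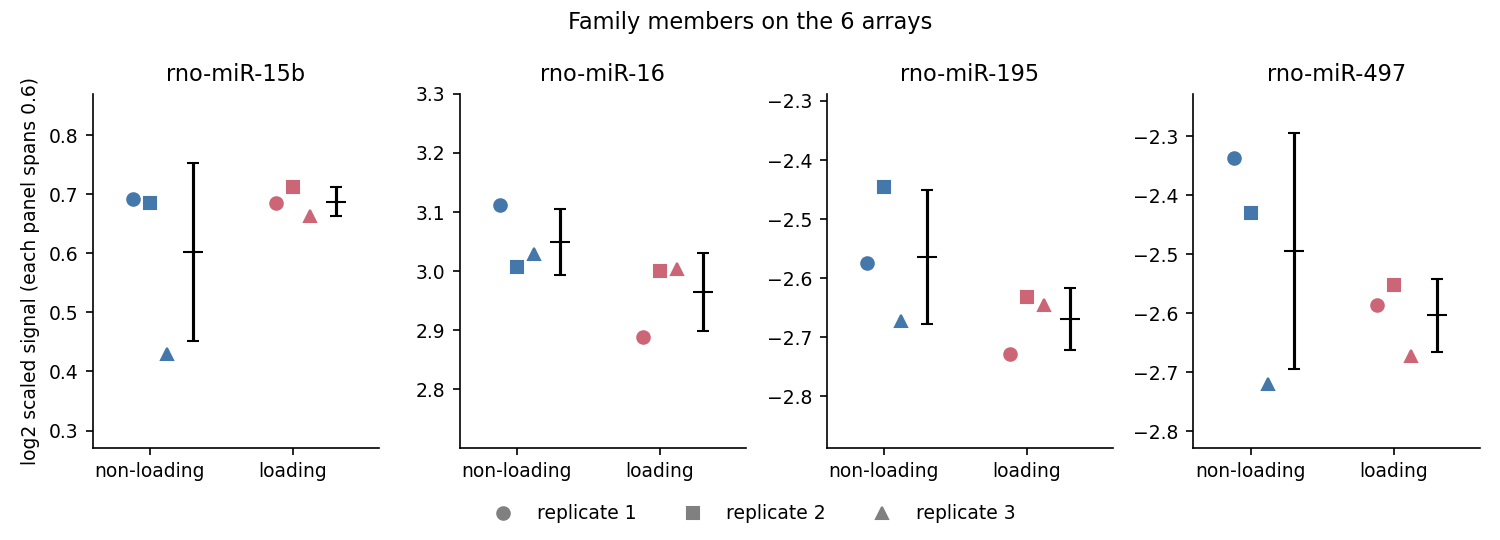
Log2 scaled signal of the 4 members on each array (blue, non-loading; red, loading; symbols, replicate numbers of the labels, which do not pair the samples), with the mean and SD of each group in black (n = 3). Each panel spans the same range of 0.6. The 3 arrays of each group overlap with those of the other for every member but miR-16, and non-loading replicate 3 is the lowest array for miR-15b and miR-497.

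For rno-miR-15b, which restrains G1 cyclins together with miR-16, the signal was 161.6%, 160.8% and 134.6% of the scaling percentile on non-loading arrays 1, 2 and 3. Under loading it was 160.9%, 163.8% and 158.4%. Non-loading replicate 3 lay below the other 5 arrays, which were close together. On the log2 scale the groups were at 0.60 ± 0.15 and 0.69 ± 0.02 (SD, n = 3). The change was 0.08 (standard error 0.10, 95% interval -0.15 to 0.32, limma adjusted p = 0.734), a ratio of 1.06 with an interval of 0.900 to 1.25. Without non-loading replicate 3 the change was -0.0017.

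For rno-miR-16, the member of the family that is abundant in many tissues, the signal was 864.9%, 803.6% and 815.8% on the non-loading arrays and 740.7%, 800.4% and 802.4% under loading. All 3 loading arrays lay below the non-loading ones, but the gap between 802.4% and 803.6% was small beside the spread within either group. The log2 signal was 3.05 ± 0.06 and 2.96 ± 0.07 (SD, n = 3). The change was -0.08 (standard error 0.08, 95% interval -0.27 to 0.11, limma adjusted p = 0.724), a ratio of 0.943 with an interval of 0.827 to 1.08. The exact permutation test over the arrays gave a two-sided p of 0.1, the smallest that 3 arrays against 3 can give.

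The scale itself touched miR-16. On non-loading replicates 1 and 2 the probe that sat exactly at the 75th percentile was the dimmer probe of miR-16, so its value there was 100% by construction. It held rank 132 of the 173 probes on non-loading replicate 3 and ranks 128, 128 and 129 on loading replicates 1, 2 and 3, where rank 130 is the percentile. With the percentile taken without the 6 family probes among the 173, a setting chosen after this was seen, the change of miR-16 was -0.10 (limma adjusted p = 0.763) and its groups overlapped. With the median of the detected probes as the scale, also chosen afterwards, it was -0.10 with overlap.

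For rno-miR-195 the signal was 16.8%, 18.3% and 15.7% on the non-loading arrays and 15.1%, 16.1% and 15.98% under loading. Non-loading replicate 3 lay among the loading arrays, and the other two non-loading arrays lay above them. The log2 signal averaged -2.56 ± 0.11 without and -2.67 ± 0.05 with loading (SD, n = 3), and the change was -0.10 (standard error 0.09, 95% interval -0.32 to 0.11, limma adjusted p = 0.724). With quantile normalization the unadjusted p of miR-195 was 0.0160 in limma, with an adjusted p of 0.228. Under that setting its groups did not overlap while those of miR-16 did. Over all 148 miRNAs, 17 then had an unadjusted limma p under 0.05 and 19 (12.8%) did not overlap.

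For rno-miR-497, the cluster mate of miR-195, the signal was 19.8%, 18.6% and 15.2% on the non-loading arrays and 16.7%, 17.0% and 15.7% under loading. Non-loading replicate 3 was the lowest of the 6 arrays and the other two non-loading arrays were the highest. The log2 signal averaged -2.50 ± 0.20 without and -2.60 ± 0.06 with loading (SD, n = 3), and the change was -0.11 (standard error 0.12, 95% interval -0.40 to 0.18, limma adjusted p = 0.724). This was the widest interval of the 4 members. Without non-loading replicate 3 the change was -0.22 (limma unadjusted p = 0.0393, adjusted p = 0.549), where 13 of the 148 miRNAs had an unadjusted p under 0.05. Without that array the groups did not overlap for miR-16, miR-195 and miR-497, while this held for 36 of the 148 miRNAs (24.3%), since 2 arrays against 3 separate more easily. The median change of all miRNAs was 0.0027 in place of 0.06. The array had the highest scaling percentile (362.2), the fewest detected miRNAs (140) and the lowest median over all spots (-2.03 intensity units), and the part of these in the values of the family was not tested.

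**Figure D2:**
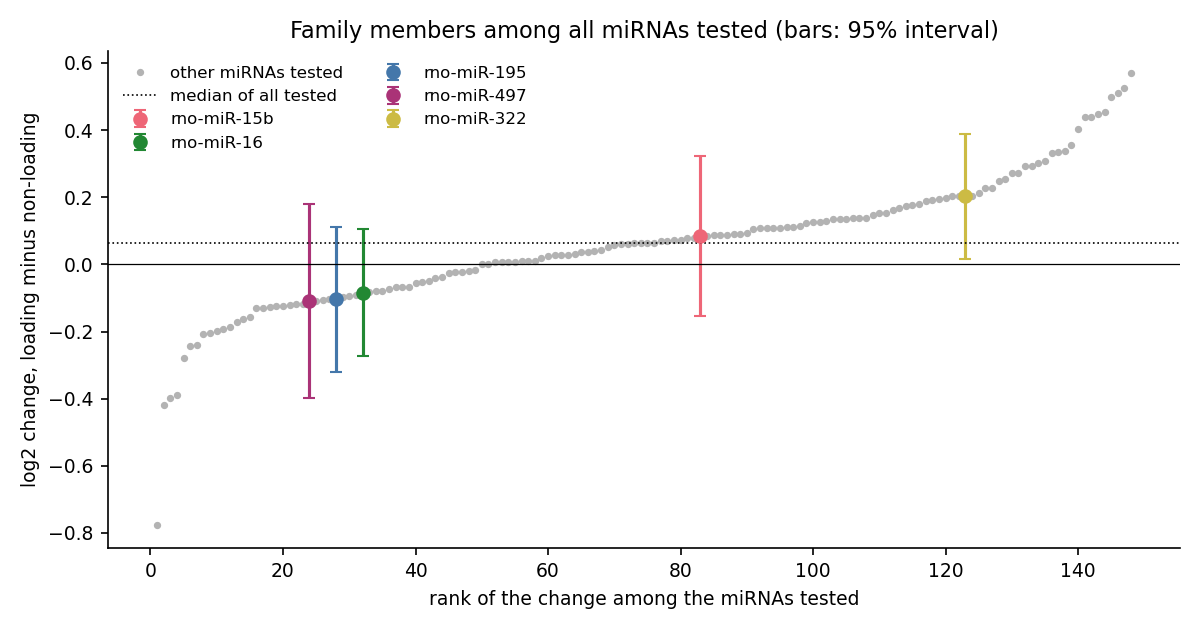
Log2 change (loading minus non-loading) of the 148 miRNAs tested, in order of the change. Coloured points are the 4 members and the seed relative miR-322 with 95% intervals from limma, grey points the other miRNAs, and the dotted line the median of all. The intervals of the 4 members include 0.

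The probes of a member gave the same sign in each case, but for miR-195 the sign of the dimmer probe rests on 1 array. For miR-15b the log2 change was 0.09 at the dimmer and 0.08 at the brighter probe, and for miR-16 it was -0.08 at both. For miR-195 the values were -0.03 and -0.11, and for miR-497 they were -0.23 and -0.09. Single probes were floored at the 1st percentile of detected probes, a higher floor than that of the summed signals. The dimmer miR-195 probe lay above it on non-loading replicate 2 alone (2.92%), and was set to the floor on the other arrays. The dimmer miR-497 probe was set to the floor on non-loading replicate 3 (2.54%). In the limma test over single probes the adjusted p of these 8 probes lay between 0.537 and 0.865, and the groups did not overlap for the dimmer probe of miR-16 alone, the one that served as the scale on 2 arrays.

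**Figure D3:**
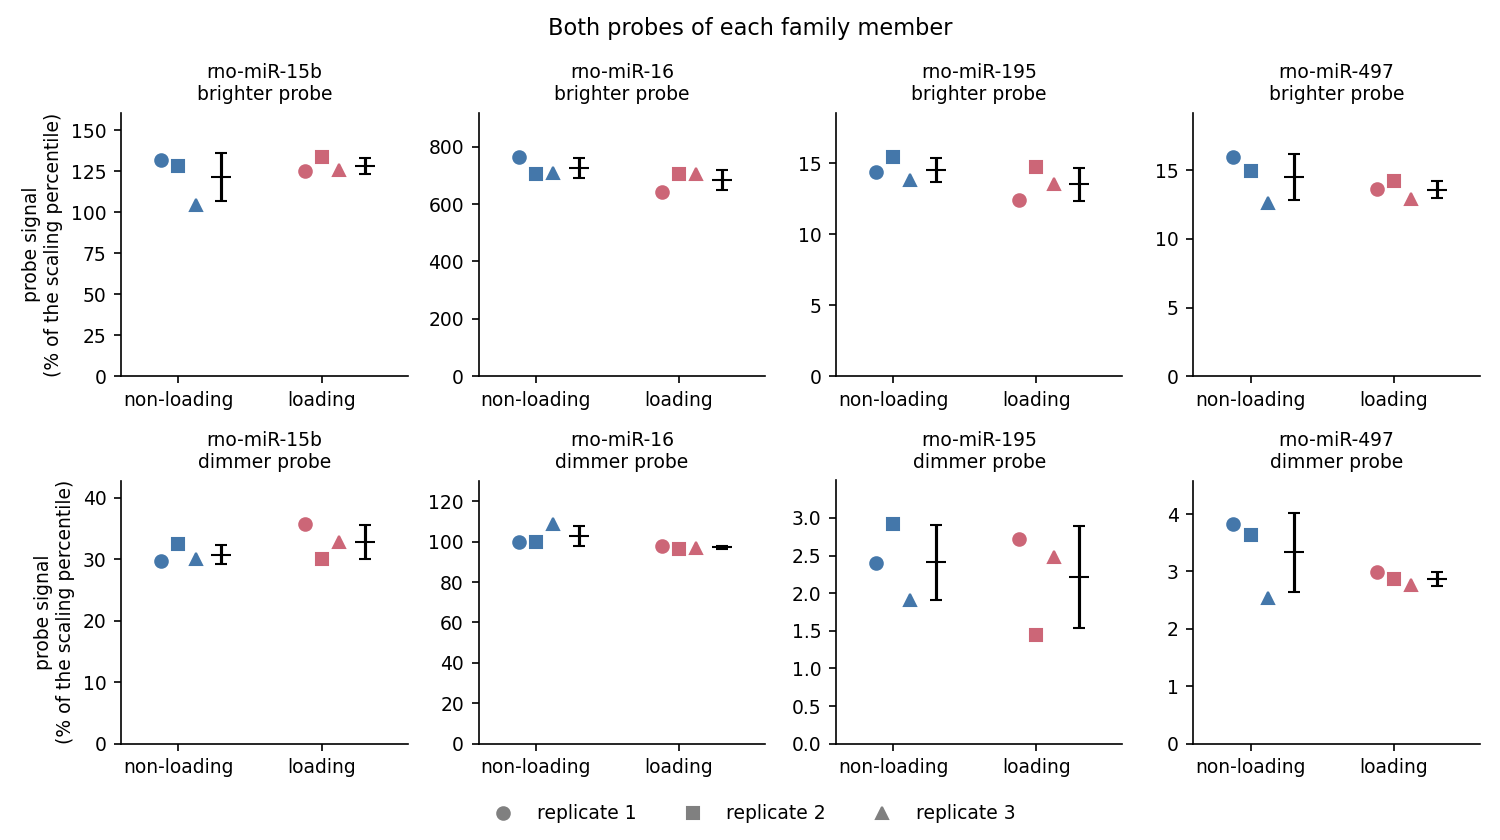
Signal of both probes of each member, as a percentage of the scaling percentile of the array (blue, non-loading; red, loading; black, mean and SD, n = 3). Axes start at 0. The 3 loading arrays of the dimmer miR-16 probe lie between 96.6% and 97.8%, and its non-loading arrays at 100%, 100% and 108.6%.

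The replicate spots show how much of this spread lies within an array. The standard error of a summed signal from its spots was 0.011 to 0.068 on the log2 scale for miR-15b, 0.0061 to 0.052 for miR-16, 0.011 to 0.034 for miR-195 and 0.023 to 0.038 for miR-497. The SD between the non-loading arrays was larger than the highest of these for miR-15b (0.15), miR-195 (0.11) and miR-497 (0.20). The SD between the loading arrays was larger for miR-195 (0.052) and miR-497 (0.062) but smaller for miR-15b (0.024 against a highest spot error of 0.068). For miR-16 the spot error of 0.052 on loading replicate 2 was close to the SD between arrays of 0.06 and 0.07. Loading replicate 2 had the most uneven spots for both probes of miR-15b and of miR-16, with coefficients of variation of 17.2% and 17.8% for miR-15b and of 10.3% and 12.8% for miR-16, where the medians over the arrays were 9.56%, 4.37%, 5.93% and 4.56%.

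In differences between members of one array the scale factor drops out, so they show unequal change only. miR-15b minus miR-16, the cluster mates inside Smc4, was -2.42, -2.32 and -2.60 on the non-loading arrays and -2.20, -2.29 and -2.34 under loading. Non-loading replicate 2 lay among the loading arrays, and the change was 0.17 (exact permutation test, two-sided p = 0.2). It was 0.093 without non-loading replicate 3. With the slide column as a block, which leaves that array and loading replicate 1 out of the comparison, it was 0.056. Without non-loading replicate 2 it was 0.23 and the groups did not overlap (exact permutation test, two-sided p = 0.1, the smallest that 2 arrays against 3 can give), and without loading replicate 3 it was 0.20, also with no overlap (p = 0.2 in the exact permutation test). miR-195 minus miR-497 was -0.24, -0.02 and 0.05 on the non-loading arrays and -0.14, -0.08 and 0.03 under loading, with a change of 0.0042 (exact permutation test, two-sided p = 1). The loading arrays lay within the range of the non-loading ones, with group means of -0.07 ± 0.15 and -0.07 ± 0.09 (SD, n = 3). All 3 non-loading arrays and loading replicate 1 lay in slide row 1, and loading replicates 2 and 3 in row 2. With the slide row as a block, loading replicate 1 alone is thus compared with the non-loading arrays, and the change was -0.074.

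The mean of miR-195 and miR-497 minus the mean of miR-15b and miR-16 compares the clusters. The second mean joins changes of opposite sign, 0.08 for miR-15b and -0.08 for miR-16. The change of miR-16 was near those of miR-195 and miR-497 (-0.10 and -0.11), so the contrast does not show clusters that each changed as a unit. The contrast was -4.36, -4.28 and -4.42 on the non-loading arrays and -4.44, -4.45 and -4.49 under loading. All 3 loading arrays lay below the non-loading ones, by a change of -0.11 (exact permutation test, two-sided p = 0.1, the smallest possible here, 0.3 after Benjamini-Hochberg adjustment over the 3 differences). Among the settings that alter these per-array differences, the groups overlapped with normexp background correction, with normexp after outlying background values were replaced, with the total gene signal of the scanner software, with quantile normalization and with the mean of the log2 probe signals. They did not overlap with the brightest probe or with outlier spots kept. The size ran from -0.58 with normexp to -0.0081 with the replaced background values, and it was -0.071 without non-loading replicate 2.

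**Figure D4:**
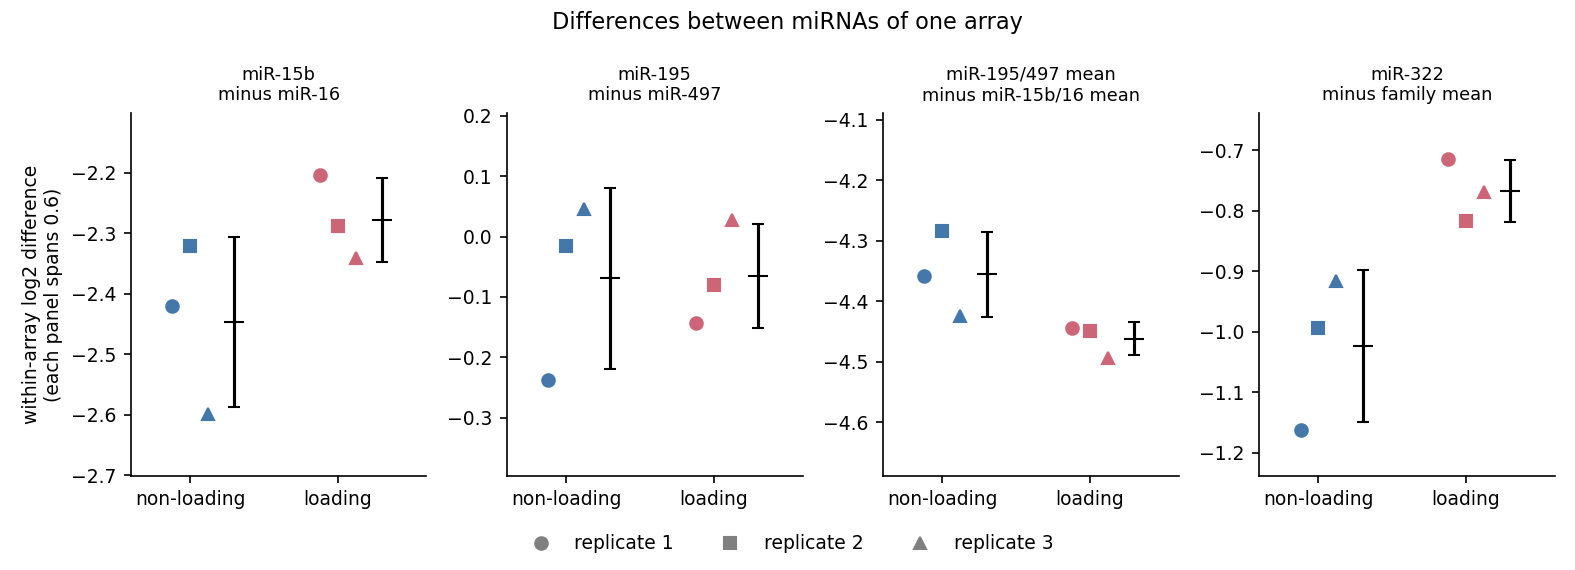
Log2 differences between miRNAs of the same array, each panel spanning 0.6 (blue, non-loading; red, loading; black, mean and SD, n = 3). The contrast of the clusters and that of miR-322 with the mean of the 4 members (chosen after its values were seen) separate the groups. The differences between cluster mates do not, although the mean changes of miR-15b and miR-16 had opposite signs.

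miR-322, which shares the seed but is made from a cluster on the X chromosome with miR-503, had another sign than 3 of the 4 members. It was higher under loading, as were 98 of the 148 miRNAs tested. So were 13 of the 14 with an unadjusted limma p under 0.05 and 19 of the 23 without overlap. The signal of miR-322 was 36.9%, 40.9% and 37.9% of the scaling percentile on the non-loading arrays and 45.1%, 44.0% and 44.1% under loading. The lowest loading array exceeded the highest non-loading one, and the log2 change was 0.20 (standard error 0.08, 95% interval 0.02 to 0.39, limma unadjusted p = 0.0367, adjusted p = 0.486). The groups overlapped under 6 settings, among them quantile normalization (0.18), the percentile over all probes (0.049) and normexp background correction (-0.27, where the median of all miRNAs was -0.45). Within arrays, miR-322 minus the mean of the 4 members was higher under loading by 0.26 (exact permutation test, two-sided p = 0.1, a difference chosen after the value of miR-322 was seen). Against single members the change was 0.12 for miR-15b, with overlap, and 0.29, 0.31 and 0.31 for miR-16, miR-195 and miR-497, without overlap. miR-503, whose seed ends in another base (A8G against miR-15b), passed detection on 1 non-loading array and 2 loading arrays, too few for the test.

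The passenger arms of the 4 hairpins were near background. miR-15b*, miR-16*, miR-195* and miR-497* were detected on 0 arrays, and over their 480 spots on the 6 arrays 1 spot, of miR-195*, was well above background. rno-miR-15a is not a name on this array.

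Other miRNAs known to act on the cell cycle were counted for comparison. Of 11 that restrain division (the let-7 family with miR-98 and the p53-linked miR-34 family), 11 were tested and 0 had an unadjusted p under 0.05 in limma. The median change was 0.04, with 7 higher and 4 lower under loading. The lower ones with the smallest limma p were let-7b at -0.16 (standard error 0.13) and miR-34a at -0.12 (standard error 0.12). Of 12 that promote division (the miR-17-92 and miR-106b-25 clusters with the related miR-20b, and miR-221 and miR-222, which lower the inhibitor p27), 10 were tested and 2 had an unadjusted p under 0.05 in limma, both higher under loading. Over all miRNAs tested this count was 14 of 148 (9.46%), of which 13 were higher. The pair from the list were miR-221 at 0.45 (standard error 0.07, adjusted p = 0.0551) and miR-222 at 0.30 (standard error 0.08, adjusted p = 0.451). The median of the 10 was 0.15, and all 10 values were positive, where 98 of the 148 miRNAs tested were.

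Over the 6 arrays the members did not follow one another closely. Pearson's r of the log2 scaled signals was -0.13 between miR-15b and miR-16 and 0.66 between miR-195 and miR-497. It was 0.62 between miR-15b and miR-497 and 0.48 between miR-16 and miR-195, the pairs with the most bases in common. The arrays share a slide and a scaling, and r over 6 arrays is a description. The miRNAs most like miR-15b were miR-7a, miR-301a and miR-106b (r of 0.99, 0.98 and 0.98). Like miR-15b, these were lowest on non-loading replicate 3, where miR-7a was at the floor (-5.74 on the log2 scale). Those most like miR-16 were miR-99a, miR-139-3p and miR-154 (0.96, 0.91 and 0.90). For miR-195 they were miR-378, miR-532-5p and miR-10a-5p (0.91, 0.85 and 0.81), and for miR-497 they were miR-532-5p, miR-361 and miR-352 (0.94, 0.92 and 0.84).

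Markers of the cell type were checked on the same scale. Of 6 miRNAs known from mesenchymal cells, miR-199a-3p, miR-199a-5p, miR-214, miR-143 and miR-21 were detected on all 6 arrays, and miR-145, a marker of contractile cells, on 1 non-loading and 2 loading arrays. miR-16 is abundant in red blood cells. Of their listed miRNAs, miR-486 is not a name on this array, and miR-451 and miR-144 were detected on 0 arrays. Those of skeletal muscle, neurons, epithelium and liver were detected on 0 arrays too. Of the leukocyte list, miR-142-3p, miR-142-5p and miR-150 were not detected and miR-223 passed detection on 2 arrays without and 3 with loading, and the summed signal of the list, with values below 0 counted as 0, was 4.48% to 8.74% of the scaling percentile in the non-loading group and 7.28% to 9.30% under loading. Of the endothelial pair, miR-126 was detected on all 6 arrays and miR-126* on 0, with sums of 2.77% to 5.24% and 3.95% to 5.73%. The part of these in the values of the family was not tested.

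**Figure D5:**
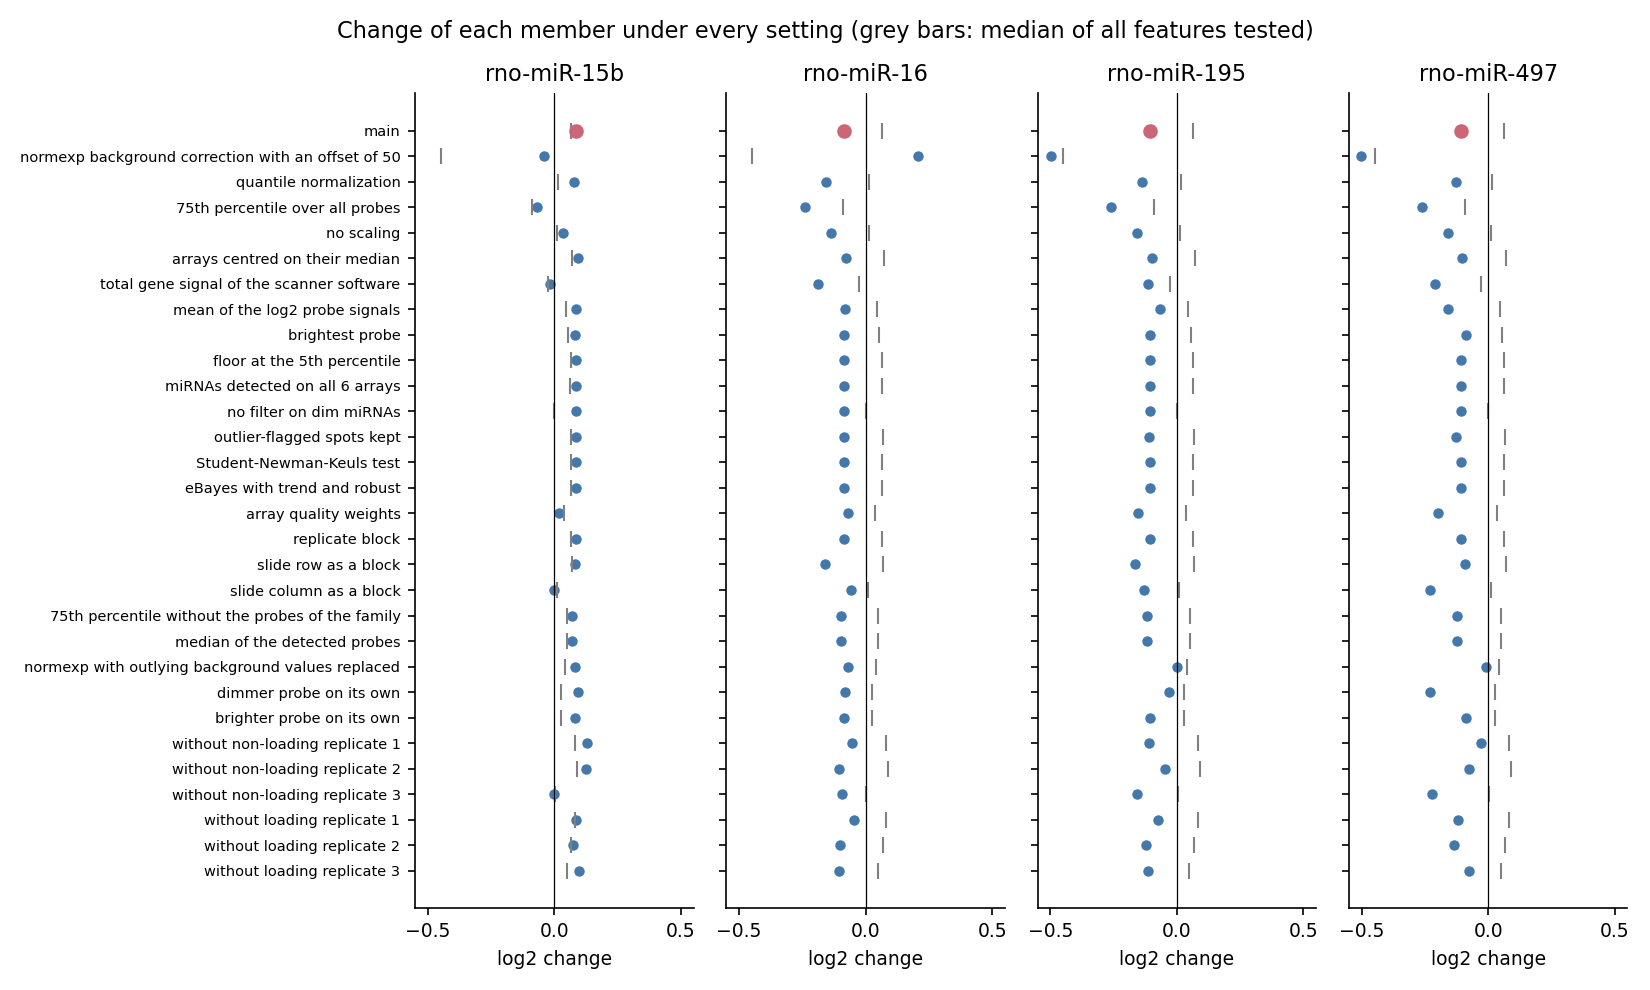
Log2 change of each member under each processing setting and each leave-out of an array (red, the setting used in the text; blue, others; grey bars, the median of all features tested in that setting). miR-15b lies on both sides of 0, miR-497 lies below 0 throughout, and miR-16 and miR-195 lie below 0 in all but 1 setting each, normexp for miR-16 (0.21) and normexp with outlying background values replaced for miR-195 (0.0019).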

How the data were processed

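Total RNA of 3 non-loading and 3 loading rTDSC samples was hybridised to Agilent rat miRNA arrays (13540 spots, 1644 probes, 677 miRNAs). The authors deposited the output of Agilent Feature Extraction 10.7.3.1, with a background-subtracted intensity per spot and flags for outliers and detection. The series matrix held the same intensities (largest difference 0), with column medians of -0.07, 0.02 and -2.03 for the non-loading arrays and 0.05, -0.42 and 0.44 for the loading arrays, so it gives no other scale. How the authors normalized before their own test is not given in the sources used here.

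Spots that are controls or flagged as outliers were dropped, the rest averaged per probe, arrays divided by the 75th percentile of the 173 probes detected on all 6 arrays (50% of spots well above background), probes of a miRNA summed, signals floored at the 1st percentile of detected miRNAs (1.87% of the scale, reached by 0 member values) and put on the log2 scale. miRNAs detected on all arrays of a group were tested with limma 3.58.1 (R 4.3.3; lmFit, eBayes) and Benjamini-Hochberg adjustment over all 148, and single values by exact permutation. The fit of single probes had a floor of its own, the 1st percentile of detected probes. The limma step was tested on simulated data. With array number the limit of precision, no depth applies.

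The named miRNAs are the 4 members, their star arms, miR-322, miR-503, the 3 tested miRNAs most like each member, and from the cell-cycle list the 2 smallest p in each direction. Members and lists were chosen with earlier results of these data known. The alternatives concerned background, scaling, probe summary, floor, filter, outlier spots, test, weights, blocks, single probes and each array left out with the scaled values kept. Normexp used the median signals, since the files used here have no mean spot signal. The 6 sequences used were found by name among 724 mature miRNAs of RefSeq's GRCr8 table. Array annotation is of build rn4, and the coordinates printed are those of the GRCr8 sequences alone.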

Additional observations from a re-analysis of the deposited data

How the results depend on the processing

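No member reached an adjusted p of 0.05 under any of the 23 other settings run or with any array left out. The change of miR-15b turned negative with normexp (-0.041, the median of all miRNAs being -0.45), with the 75th percentile over all probes (-0.069), with the total gene signal of the scanner software (-0.017) and with the slide column as a block (-0.0011). That of miR-16 turned positive with normexp (0.21), as miR-15b minus miR-16 turned negative (-0.25), and that of miR-195 with normexp after outlying background values were replaced (0.0019). The highest background value was 7260.5 and 109535 intensity units on non-loading replicates 1 and 3 and 27316 on loading replicate 2, against 25 to 27 on the other arrays. After the replacement miR-15b was at 0.08, miR-16 at -0.069, miR-15b minus miR-16 at 0.15 and the median of all miRNAs at 0.04. miR-497 ran from -0.50 with normexp to -0.0071 with that replacement. miR-195 minus miR-497 was -0.012 with quantile normalization, -0.017 with the brightest probe and -0.074 with the slide row as a block. The cause was not tested for these.

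With an array left out, the changes ran from -0.0017 to 0.13 for miR-15b, from -0.11 to -0.047 for miR-16, from -0.16 to -0.045 for miR-195 and from -0.22 to -0.029 for miR-497. miR-195 minus miR-497 ran from -0.080 to 0.062, negative without non-loading replicate 1 or loading replicate 3.

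The count of members with an unadjusted p under 0.05 in limma was 1 with quantile normalization (miR-195) and 1 with the slide column as a block (miR-497), and 0 to 1 with an array left out, the 1 without non-loading replicate 3. The column block leaves that array out too. The count of members without overlap was 0 with normexp, with and without replaced background values, with all probes, arrays centred on their median, the total gene signal, the brightest probe, outlier spots kept, and both scales chosen after seeing the data, and leaving out an array gave 1 to 3, the 3 without non-loading replicate 3. The 1 of the leave-outs is miR-16, which cannot come to overlap when an array is left out. Over all miRNAs 33 to 48 of 148 (22.3% to 32.4%) did not overlap in these leave-outs.

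Over all miRNAs, the count at an unadjusted p under 0.05 in limma, 14 here, was 0 with normexp, 1 with all probes, 4 without scaling, 8 with the total gene signal, 8 with normexp after replacement, 6 with the replicate block and 7 with the slide row as a block. Leaving out an array gave 6 to 17, of which 6 came without the loading replicate 3 array and 7 without the loading replicate 1 array. Of the 14, 13 were higher and 1 lower under loading, where quantile normalization gave 8 higher and 9 lower, no scaling 3 and 1, the total gene signal 3 and 5, and centring on the median 9 and 2. The count at an adjusted p under 0.05 was 2 with the brightest probe, log2 probe signals averaged, detection on all 6 arrays, outlier spots kept, the Student-Newman-Keuls test, eBayes with trend and robust, and array weights.

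The shared replicate numbers gave no pairing. Between arrays of one number, the deviations from the group means correlated at -0.69, -0.47 and 0.11 over the 148 miRNAs, and 1 of 6 arrays correlated best with its own number. With the replicate block the change of miR-15b was 0.08, and the members stayed at an unadjusted p over 0.05. The column block, the replaced background values, the 2 added scales and the differences with miR-322 were chosen after seeing the data. Signal over background limits miR-195 and miR-497, whose dimmer probes were well above background on 13 and 19 of 60 spots.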

Other observations

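miR-103 and miR-107 carry the family's seed letters 1 base nearer to the 5′ end, at positions 1 to 7, and were the 2 of 724 mature miRNAs that did. Their log2 changes, looked at after the values of the family were seen, were 0.09 and 0.09 (standard errors 0.07 and 0.07, limma adjusted p = 0.724 for both). The median over all 148 miRNAs tested was 0.06. Neither had overlapping groups, which held for 23 of the 148 miRNAs (15.5%), 19 of them higher under loading. Within groups, with each group's mean taken off, miR-15b and miR-497 followed each other over the 6 arrays with r of 0.97, and miR-15b and miR-16 with r of 0.22. Both miR-15b and miR-497 were lowest on non-loading replicate 3.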
